A study of Mus musculus with 6 samples.

Results

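The genes described here are 10 components of the switch that carries a cell from G1 into S phase. They are the D-type cyclins Ccnd1, Ccnd2 and Ccnd3, their kinases Cdk4 and Cdk6, the E-type cyclins Ccne1 and Ccne2, the pocket protein genes Rb1 and Rbl1, and the transcription factor gene E2f1. They were chosen by symbol from a table of 27179 genes, and all 10 passed the filter on low counts that left 14855 genes to test. Bulk RNA sequencing compared CD34 negative with CD34 positive cancer-associated fibroblasts (CAFs) sorted from raGFP-Wnt1 mammary tumors, with 3 libraries per fraction and 1 of each fraction from every tumor. In these mice a Wnt1 transgene under the MMTV promoter, which is active in mammary epithelium, gives rise to mammary tumors, and a GFP reporter at Pdgfra labels fibroblasts. Both fractions therefore carried the same alleles and the same tumor background, and differed in the surface protein used for the sort. The ages of the animals, and whether the 3 tumors came from separate mice, were not given in the sources used here.

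D-type cyclins are produced when growth factors act on a cell, and they activate CDK4 and CDK6. These kinases begin the phosphorylation of RB and its relatives, the pocket proteins, which in unphosphorylated form hold E2F factors in check. Released E2F activates E-type cyclins, its own gene and the genes of DNA replication, and cyclin E with CDK2 completes RB phosphorylation. INK4 proteins such as p16 block CDK4 and CDK6, and p21, p27 and p57 act on cyclin-CDK complexes more widely. Much of this control acts on proteins through phosphorylation and degradation, which mRNA counts do not measure.

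None of the 10 genes differed between CD34 negative and CD34 positive CAFs at an adjusted p under 0.05, either without a tumor term or with the tumor as a block. Their groups overlapped in every case. Over all genes tested, 10% did not overlap with the CD34 negative fraction lower and 10.4% with it higher. Levels are given as counts scaled to library size (CPM). The median log2 fold change of the 10 genes, coded CD34 negative minus CD34 positive, was -0.36, beside -0.03 over all genes tested, with 4 positive and 6 negative values. The D-type cyclins and Rb1 had positive estimates, and the kinases, the E-type cyclins, Rbl1 and E2f1 had negative ones. Rb1 and Rbl1 passed an unadjusted p of 0.05 without the tumor term, in opposite directions, where 2128 of all genes tested (14.3%) passed it. The fit without a tumor term called 18 of all genes tested (0.121%), so a count of 0 among 10 genes was not far from the background. With the tumor as a block, 642 genes (4.32%) were higher and 631 (4.25%) lower in the CD34 negative fraction, and 4 of the 10 genes passed an unadjusted p of 0.05, as did 3460 of all genes tested (23.3%). The fits by edgeR called 0 of the 10 genes without the block (9 of all genes tested) and 0 with it (3.87% over all genes). DESeq2 called 0 without the block (4.7% over all genes) and 1, Rbl1, with it (11.7% over all genes), close to that share.

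**Figure D1:**
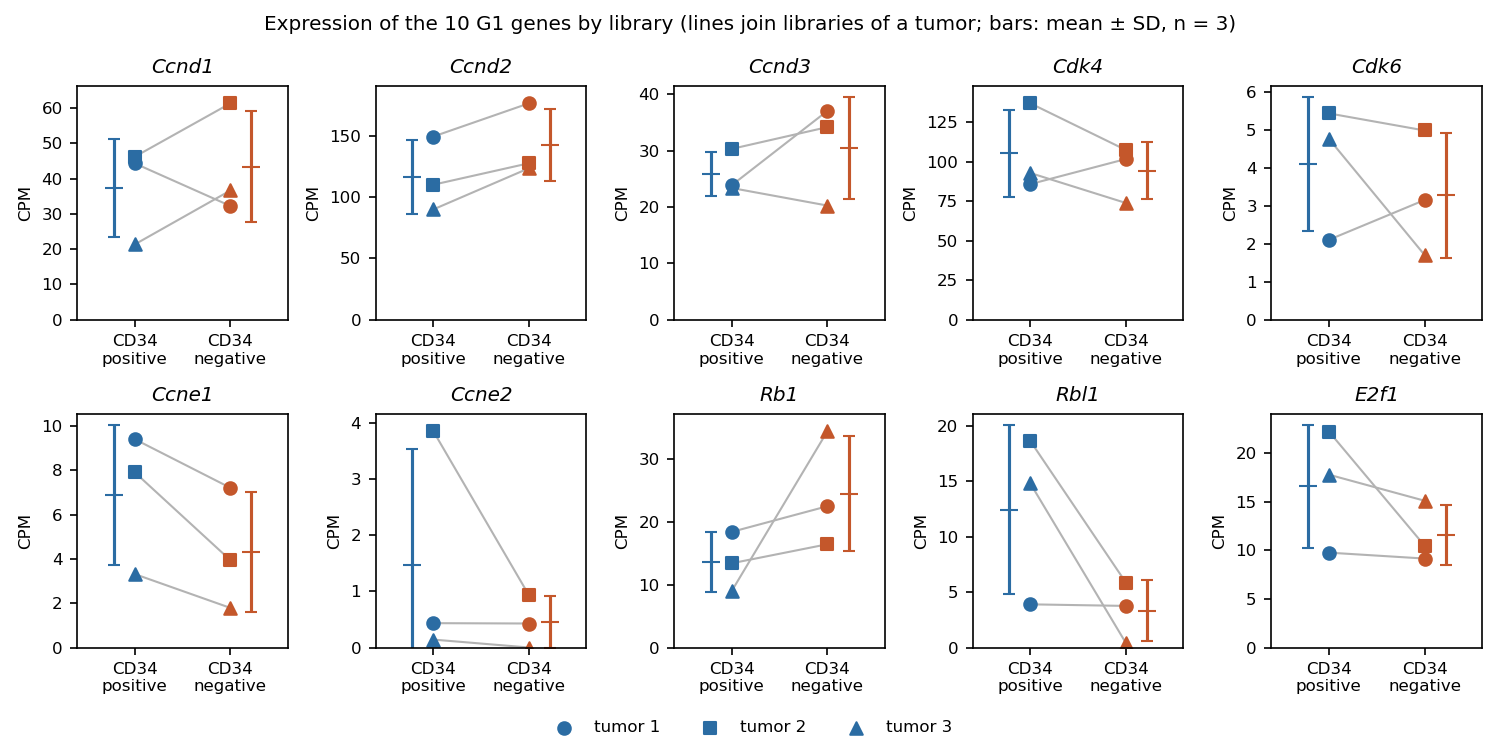
CPM (vertical axes from 0) of the 10 genes in the 3 CD34 positive (blue) and 3 CD34 negative (orange) libraries, with a symbol for each tumor, lines joining the libraries of a tumor, and the mean ± SD beside the points (n = 3). The groups overlapped for all 10 genes, beside 10% (CD34 negative lower) and 10.4% (CD34 negative higher) of all genes tested with no overlap. The lower SD bars of Ccne2 are cut off at 0.

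Total counts ran from 16238059 in CD34 positive library 1 to 86609267 in CD34 positive library 2. CD34 negative library 3 had the fewest detected genes, 14314 against 16253 to 19220 in the others, and 161 genes that were at 0 there while averaging at least 2 CPM in the other libraries, against 1 to 31 in each of the others. Cd34 itself was at 678, 563 and 1605 CPM in the CD34 positive libraries and 79.2, 42.0 and 102 in the CD34 negative ones, lower in every negative library. Among 5 fibroblast markers Pdgfra had a log2 fold change of -0.16 ± 0.24 (SE). With the tumor as a block, Dcn fell by 1.12 (adjusted p = 0.00154) and Lum by 0.73 (adjusted p = 0.014), while Igfbp5 was at -0.82 (adjusted p = 0.0717) and Col1a2 at 0.35 (adjusted p = 0.271). By summed level, of the markers of other cell types, those of pericytes and muscle did not overlap between the fractions. Among single genes the muscle marker Acta1 overlapped and the epithelial marker Krt5 did not. With the tumor as a block, adjusted p was 0.0803 for Rgs5, 0.00251 for Mcam, 0.00309 for Cspg4 and 0.0362 for the muscle marker Des. Rgs5, Mcam and Cspg4 were higher in all CD34 negative libraries, and their summed level was 17.1 to 61.6 CPM in the positive and 130 to 171 CPM in the negative fraction. The 4 muscle markers summed to 1.52 to 1.86 and 2.97 to 13.3 CPM, nearly all of it Des in the negative fraction, while Myf5 was at 0 in every library. The 6 epithelial markers summed to 131, 78.0 and 17.1 CPM in the positive and 144, 121 and 50.2 CPM in the negative libraries of tumors 1, 2 and 3, higher in the negative library of each tumor, and Ptprc, the pan-leukocyte gene, was at most 0.481 CPM. The part of other cells, and of the sparser CD34 negative library 3, in the results below was not tested. In bulk samples fewer cells in cycle and less RNA per cell cannot be told apart.

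Ccnd2, which encodes cyclin D2, had the highest level per length of the D-type cyclins in every library. It lies on chromosome 6 (127125162 to 127152188, minus strand, GRCm38; NCBI gene 12444). Its level was 149, 110 and 89.9 CPM in CD34 positive libraries 1, 2 and 3 and 176, 128 and 124 CPM in CD34 negative libraries 1, 2 and 3. Within each of the 3 tumors the CD34 negative library was the higher one, but the differences between tumors were as large, so that the groups overlapped. CD34 negative minus positive came to 0.31 ± 0.24 on the log2 scale (SE; 95% interval -0.23 to 0.85; adjusted p = 0.588). With the tumor as a block the estimate was 0.30 ± 0.13, at an unadjusted p of 0.0416 and an adjusted p of 0.194. Both 95% intervals lay within 1 log2 unit of 0.

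Ccnd1 encodes cyclin D1, a target of mitogen and Wnt signalling in many cell types, and lies on chromosome 7 (144929931 to 144939831, minus strand; gene 12443). It was at 44.3, 46.2 and 21.3 CPM in the CD34 positive and 32.2, 61.3 and 36.6 CPM in the CD34 negative libraries. The CD34 negative library was lower in tumor 1 and higher in tumors 2 and 3, and the log2 fold change was 0.22 ± 0.35 (adjusted p = 0.814). Ccnd3, the gene of cyclin D3 on chromosome 17 (47505051 to 47599689, plus strand; gene 12445), was at 23.9, 30.3 and 23.4 CPM in the positive and 37.1, 34.2 and 20.3 CPM in the negative fraction. Its highest and lowest libraries were both CD34 negative, and its log2 fold change was 0.17 ± 0.27 (adjusted p = 0.812). The tumor block left Ccnd1 at 0.28 and Ccnd3 at 0.20, with adjusted p of 0.494 and 0.614.

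The makeup of the D-type cyclin pool was compared per length, as the share of each gene in the summed counts per kb. Ccnd2 made up 53.8, 42.7 and 49.4% of the pool in the CD34 positive and 55.1, 41.4 and 53.5% in the CD34 negative libraries. The mean shares differed by 1.38 percentage points for Ccnd2 (two-sided exact permutation p = 0.8), by 0.118 for Ccnd1 (exact p = 1) and by -1.49 for Ccnd3 (exact p = 0.6), all within the spread of the libraries. With 3 libraries against 3 the smallest p this test can give is 0.1. Within tumors 1, 2 and 3 the negative library differed from the positive one by -8.95, 3.01 and 6.29 points for Ccnd1. These differences were 1.33, -1.30 and 4.10 points for Ccnd2 and 7.62, -1.71 and -10.4 for Ccnd3, so opposite directions offset each other in the means. Tumors also differed within a fraction: Ccnd1 held 15.3% of the pool in CD34 negative library 1 and 30.3% in CD34 negative library 2. Reads over an exon that 2 genes share cannot be assigned without strand, and the counting was not stated to use it. Ccnd1 shares 1100 of 4709 exon bases with LTO1, and Ccnd3 shares 361 of 8775 with Bysl, each on the opposite strand. Here and below these are exon bases of a GENCODE annotation, beside deposited exon lengths of 3796 for Ccnd1 and 2261 for Ccnd3. Shared bases may therefore lie outside the exons that were counted.

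**Figure D2:**
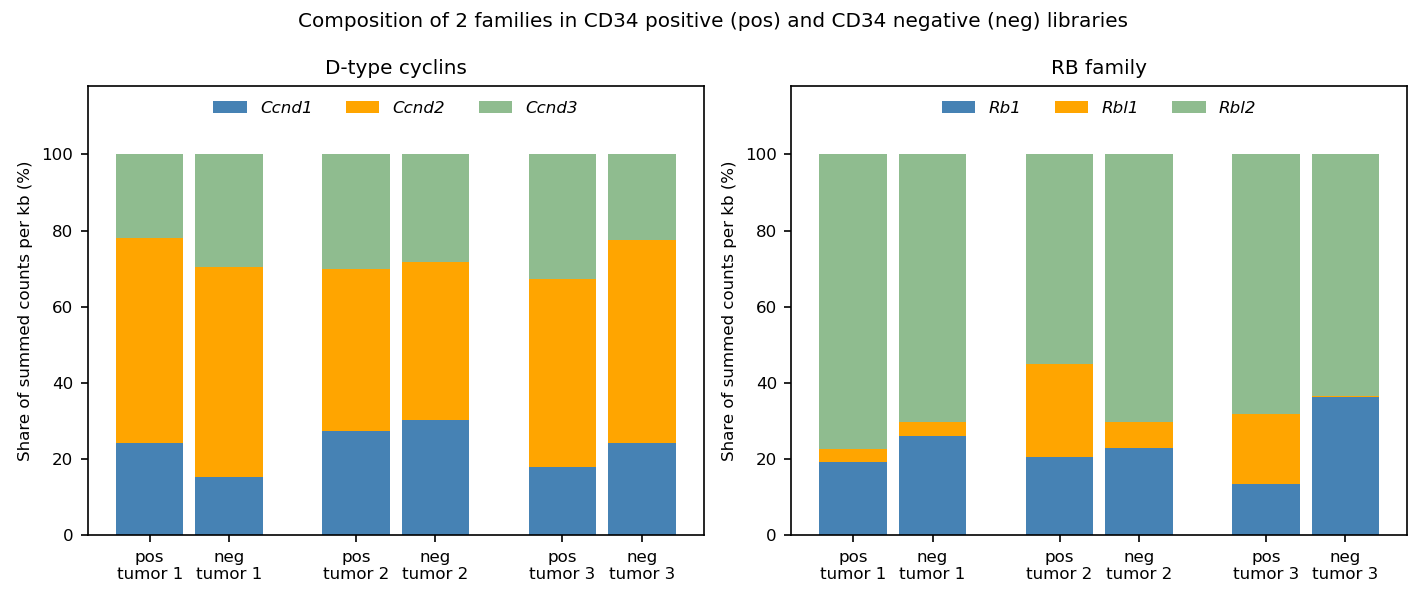
Share of each gene in the summed counts per kb (%, vertical axes from 0) of the D-type cyclins (left) and the RB family (right), with 1 stacked bar for each library and the libraries of a tumor side by side. Ccnd2 is the largest D-type cyclin segment in all 6 libraries, and the Rbl1 segment runs from 0.346% in CD34 negative library 3 to 24.4% in CD34 positive library 2.

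Cdk4 was the more abundant of the D-type cyclin partners. It is encoded on chromosome 10 (127063535 to 127067288, plus strand; gene 12567) and was at 85.8, 137 and 92.8 CPM in the CD34 positive and 102, 107 and 73.8 CPM in the CD34 negative libraries. The negative library was higher in tumor 1 and lower in tumors 2 and 3, with a log2 fold change of -0.15 ± 0.23 (95% interval -0.68 to 0.39; adjusted p = 0.813). Of its 3249 GENCODE exon bases, 641 are shared with Tspan31 on the opposite strand, which had 24773 counts in all beside 28955 for Cdk4. The deposited exon length of Cdk4 is 1347. Whether the shared bases were among those counted, and whether part of the Cdk4 count comes from its neighbor, was not tested.

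Cdk6, on chromosome 5 (3341004 to 3531008, plus strand; gene 12571), was low in both fractions, with 2.10, 5.43 and 4.76 CPM in the CD34 positive and 3.15, 4.98 and 1.71 CPM in the CD34 negative libraries. The log2 fold change of -0.58 ± 0.51 (adjusted p = 0.643) shrank to -0.29 with the tumor as a block, and its direction differed between the tumors. Per kb, Cdk4 was 35.7 to 79.4 times the level of Cdk6 in the 6 libraries, and the log2 ratio of the kinases differed by 0.20 between the fractions (exact permutation p = 0.7). D-type cyclins per unit of Cdk4 plus Cdk6 came to 0.746, 0.430 and 0.445 in the positive and 0.723, 0.654 and 0.721 in the negative fraction, per kb, and overlapped.

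The promoter of Cdk4 is shown because its start is crowded with E-boxes, the letters CACGTG that MYC with MAX is known to bind. By limma-voom Myc passed with the tumor as a block (adjusted p = 0.0038) but not without it (adjusted p = 0.0906). Of the 10 genes, 6 had a promoter entry in the RefSeq table of GRCm38.p6, which gives 250 bases before and 50 after each start, and Ccnd1, Ccnd2, Ccne2 and Rb1 had none. Within its window Cdk4 held 4 E-boxes, which read the same on both strands, and Cdk6 held 1. Of 32851 promoter windows of this length, 2349 (7.15%) held an E-box and 8 (0.0244%) held 4 or more. The 200 bases before the Cdk4 start, at chr10:127063335-127063534 on the plus strand and with E-boxes in capitals, read:
Cdk4: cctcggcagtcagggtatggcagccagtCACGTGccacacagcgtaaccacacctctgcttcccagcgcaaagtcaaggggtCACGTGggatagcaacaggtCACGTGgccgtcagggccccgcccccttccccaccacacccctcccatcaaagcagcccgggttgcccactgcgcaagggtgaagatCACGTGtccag
A match of letters is a description of this window and not a site of binding. Myc was at 488, 440 and 437 CPM in the CD34 positive and 278, 252 and 189 CPM in the CD34 negative libraries. A link between Myc and Cdk4 was not tested.

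Ccne1, the gene of cyclin E1 on chromosome 7 (38097984 to 38107490, minus strand; gene 12447), was lower in the CD34 negative library of all 3 tumors. It stood at 9.41, 7.91 and 3.32 CPM in the positive and 7.21, 3.94 and 1.79 CPM in the negative libraries. Levels in tumor 3 were the lowest of each fraction, and the positive library of tumor 3 lay below both other negative libraries. The log2 fold change was -0.70 ± 0.56 without the tumor term (adjusted p = 0.615) and -0.75 ± 0.34 with it (95% interval -1.52 to 0.02; adjusted p = 0.229). Without the tumor term it came to -0.28 when CD34 positive library 2 was left out, -0.26 without CD34 negative library 3 and -1.26 without CD34 negative library 1.

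Ccne2, the gene of cyclin E2 on chromosome 4 (11190433 to 11204779, plus strand; gene 12448), was below 1 CPM outside 1 library. It was close to the limit of detection in CD34 positive libraries 1 and 3 and CD34 negative library 3. Its counts were 7, 329 and 4 in the CD34 positive and 24, 42 and 0 in the CD34 negative libraries, or 0.433, 3.85 and 0.141 CPM and 0.427, 0.930 and 0 CPM. CD34 positive library 2 held most of the reads, and the count of 0 in CD34 negative library 3 allows a level of up to 0.0825 CPM (3 counts, counting error only). The log2 fold change of -2.61 ± 1.94 (adjusted p = 0.581) had a 95% interval from -7.06 to 1.84, and it came to -0.26 without CD34 positive library 2 and -1.01 without CD34 negative library 3. Ccne2 also shares 609 of 3495 exon bases with Ints8, a gene with 6935 counts in all beside 406 for Ccne2. Where both E-type cyclins had reads, the log2 ratio of Ccne1 to Ccne2 per kb differed by -0.26 between the fractions (5 libraries, exact permutation p = 0.8). E-type per D-type cyclin, per kb, came to 0.103, 0.117 and 0.0551 in the positive and 0.0688, 0.0432 and 0.0228 in the negative libraries, lower in the negative library of every tumor, with groups that overlapped. This ratio was chosen after the values were seen and was not tested.

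Rb1 encodes the retinoblastoma protein and lies on chromosome 14 (73192858 to 73325951, minus strand; gene 19645). It was at 18.4, 13.4 and 9.03 CPM in the CD34 positive and 22.5, 16.5 and 34.5 CPM in the CD34 negative libraries. The negative library was higher in all 3 tumors, by a log2 ratio of 0.29 in tumor 1, 0.29 in tumor 2 and 1.93 in tumor 3. The log2 fold change was 0.86 ± 0.34 (95% interval 0.08 to 1.64; unadjusted p = 0.0349; adjusted p = 0.312), and 0.77 with the tumor as a block (adjusted p = 0.178). Leaving out single libraries or tumors moved the estimate between 0.28 and 1.20, and it stayed positive in all 30 alternatives run. Rb1 shares 408 of 6015 exon bases with Lpar6 on the opposite strand, which had 828 counts in all beside 4967 for Rb1.

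Rbl1 encodes p107, a pocket protein that is itself made from an E2F-driven gene, and lies on chromosome 2 (157145893 to 157204534, minus strand; gene 19650). It stood at 3.90, 18.6 and 14.8 CPM in the CD34 positive and 3.76, 5.85 and 0.385 CPM in the CD34 negative libraries. Tumor 1 showed next to no difference, while the log2 ratio was -1.67 in tumor 2 and -5.22 in tumor 3. The lowest value rests on 14 counts in CD34 negative library 3, and the positive library of tumor 1 lay within the negative range, which made the groups overlap. Its log2 fold change was -2.52 ± 0.92 (95% interval -4.63 to -0.41; unadjusted p = 0.0246; adjusted p = 0.281) without and -1.74 ± 0.58 (adjusted p = 0.107) with the tumor as a block.

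Among the 10 genes Rbl1 was the only one whose call changed in the alternatives run. With the tumor as a block it passed by DESeq2 (log2 fold change -2.15, adjusted p = 0.0386), a fit that called 11.7% of all genes tested. It did not pass by edgeR with the block (adjusted p = 0.293). In limma-voom with the block it passed once CD34 negative library 3 was left out (-1.29, adjusted p = 0.0316) or tumor 3 was left out whole (-1.31, adjusted p = 0.0230). Those fits called 1859 of 15559 and 2019 of 15514 genes tested. The direction was negative in all 30 alternatives.

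The RefSeq promoter window of Rbl1 is shown because, of the 6 genes with an entry, it alone held a match to an E2F motif. The letters searched were TTTCCCGC, TTTGGCGC, TTTCGCGC and TTTGCCGC on both strands, and the Rbl1 window held no E-box that a match could overlap. Of the same 32851 windows 744 (2.265%) held at least 1 match. Counted by gene and not by window, 10 of the 22 E2F-driven S phase genes with an entry held a match. The 120 bases before the Rbl1 start, at chr2:157204535-157204654 and printed 5′ to 3′ along the minus strand with the match in capitals, read:
Rbl1: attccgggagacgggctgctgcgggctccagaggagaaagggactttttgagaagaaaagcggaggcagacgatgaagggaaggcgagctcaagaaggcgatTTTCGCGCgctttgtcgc
That the window of E2f1 or Ccne1 held none of these letters says nothing of the factor there.

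Rb1 and Rbl1 were also set against each other within each library, which removes differences in depth. The log2 ratio of Rb1 to Rbl1, per kb, was 2.47, -0.24 and -0.49 in the CD34 positive and 2.81, 1.72 and 6.71 in the CD34 negative libraries. Within tumors 1, 2 and 3 it was higher in the negative library by 0.34, 1.97 and 7.20, and the means differed by 3.17 (two-sided exact permutation p = 0.2; smallest possible p 0.1), or by 1.16 without tumor 3. Rbl2, the gene of p130, the pocket protein of resting cells, supplied the largest part of the family in every library, 77.3, 55.1 and 68.1% of the summed counts per kb in the positive and 70.4, 70.3 and 63.4% in the negative fraction. Its log2 fold change was 0.27 ± 0.25 (adjusted p = 0.662). Rb1 made up 19.2, 20.6 and 13.3% in the positive and 25.9, 22.8 and 36.3% in the negative libraries, with no overlap, a share computed after the values were seen and not tested.

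E2f1, on chromosome 2 (154559400 to 154569892, minus strand; gene 13555), was at 9.78, 22.3 and 17.8 CPM in the CD34 positive and 9.17, 10.5 and 15.1 CPM in the CD34 negative libraries. It was lower in the negative library of all 3 tumors, by a log2 ratio of -1.08 in tumor 2 but of only -0.10 and -0.24 in tumors 1 and 3, and its groups overlapped because CD34 positive library 1 was low. For E2f1 the log2 fold change was -0.72 ± 0.33 (95% interval -1.47 to 0.03; adjusted p = 0.371), and -0.63 with the tumor as a block (unadjusted p = 0.0373; adjusted p = 0.183). Without CD34 positive library 2 it came to -0.37, with no tumor term. Of its relatives, E2f3, an activator like E2f1, had a log2 fold change of 0.12 ± 0.24 and E2f4, a factor found with pocket proteins in resting cells, one of -0.20 ± 0.21.

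**Figure D3:**
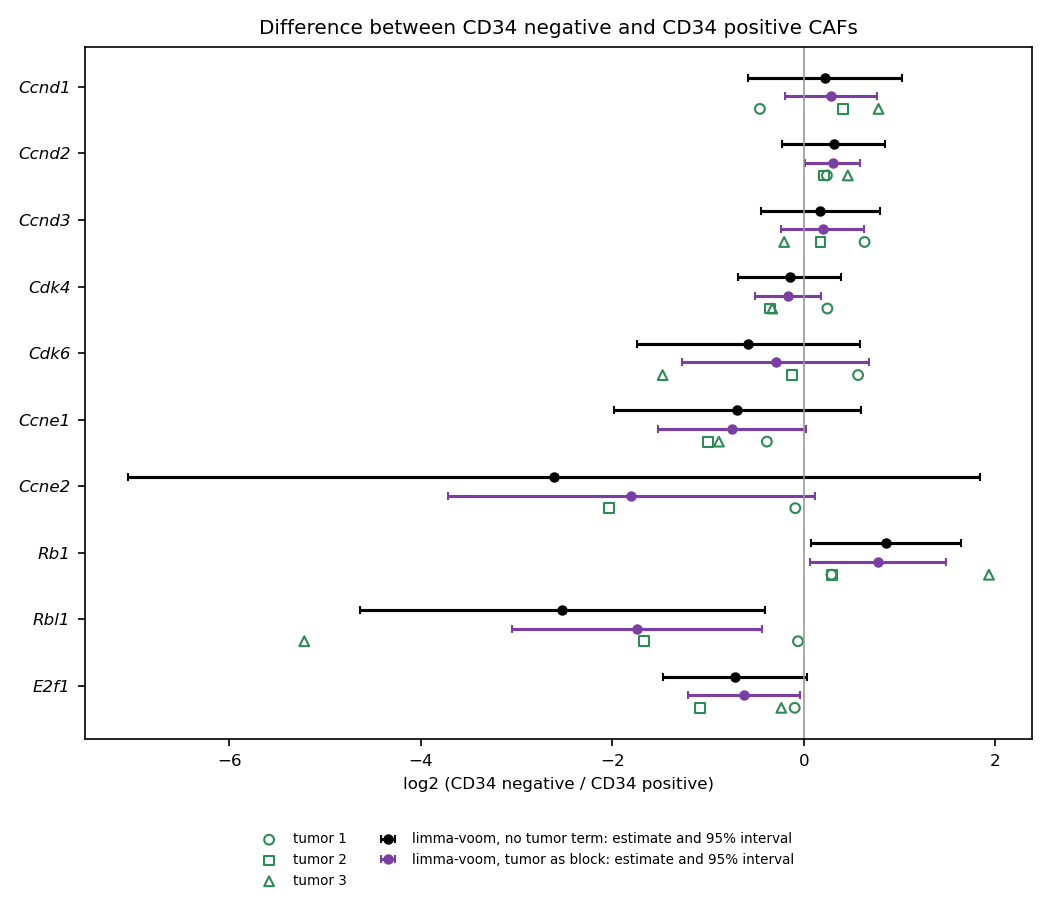
Log2 ratio of CD34 negative to CD34 positive expression (horizontal axis) for the 10 genes, with the limma-voom estimate and 95% interval without a tumor term (black) and with the tumor as a block (purple), and the CPM ratio within each tumor (open green symbols). The ratios of Ccne1, Rbl1 and E2f1 lay nearest 0 in tumor 1, that of E2f1 was farthest from 0 in tumor 2 and that of Rbl1 in tumor 3, and Ccne2 in tumor 3 is left out because its CD34 negative count was 0.

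CD34 positive library 2, the deepest, held the highest level of Cdk4, Cdk6, Ccne2, Rbl1 and E2f1, and also of Mki67, the gene of the proliferation antigen Ki-67. Mki67 was at 16.6, 106 and 47.3 CPM in the positive and 4.72, 21.9 and 20.2 CPM in the negative libraries. The estimate for Mki67 was -2.12 ± 0.77, at adjusted p = 0.275, and reached adjusted p = 0.00233 once the tumor was a block. Without CD34 positive library 2, and with no tumor term, Cdk4 turned from -0.15 to 0.05.

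Around these genes, 5 lists of cell cycle and pathway genes were read in the same fits. Without a tumor term none of their genes was called by limma-voom or edgeR, 22 of 87 passed an unadjusted p of 0.05 (14.3% over all genes), and DESeq2 called 5 of them (4.7% over all genes). The calls below come from the fit with the tumor as a block, a choice made after the planned limma-voom fit without it called none. List medians, unless given by tumor, and the numbers of negative estimates are from the fit without the block. With the block limma-voom called 19, edgeR 8 (3.87% over all genes) and DESeq2 23 (11.7% over all genes). With the tumor as an estimated correlation instead, 5 of the 87 genes were called (4.73% over all genes): Cks1b and Myc, which were lower, and Cdkn1a, Cdkn2a and Cdkn2b, which were higher.

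Among 26 other genes of the G1/S machinery, 2 fell in CD34 negative CAFs and none rose, beside 4.25% of all genes called lower, at a median log2 fold change of -0.40 without the block. With the estimated correlation 1 of the 2, Cks1b, was called. Both were also called with the block by edgeR and by DESeq2. Ccna2, the cyclin that follows cyclin E in S phase, was at 2.97, 25.7 and 3.53 CPM in the positive and 0.979, 4.80 and 0.990 CPM in the negative libraries (block estimate -2.28 ± 0.36, adjusted p = 0.00642). Cks1b, a small subunit that binds CDKs, fell by 1.26 ± 0.23 on the log2 scale (adjusted p = 0.0120), and its groups did not overlap, as held for 1488 genes tested (10%) with the CD34 negative fraction lower and 1549 (10.4%) with it higher. Cdk2, the partner of cyclin E, was at 16.7, 27.7 and 18.2 CPM in the positive and 15.3, 14.2 and 9.99 CPM in the negative libraries. Its groups did not overlap either, but it did not pass (adjusted p = 0.292 without and 0.0901 with the block).

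Of 26 E2F-driven S phase genes 4 fell and none rose, beside 4.25% of all genes called lower, and 24 of the 26 had a negative estimate, with a median of -1.07. The 4 were Mcm2 and Mcm5, subunits of the replicative helicase, Prim1, a primase subunit, and Uhrf1, which helps copy DNA methylation, with block estimates from -1.47 to -2.17. CD34 positive library 2 was the highest library for each of the 4, and neither edgeR with the block nor limma-voom with the estimated correlation called any of them. DESeq2 with the block called 3 of them, Mcm2, Mcm5 and Prim1 (11.7% over all genes). The list's median within tumor 3 was 0.33, against -0.27 and -1.38 in tumors 1 and 2. Thus the direction of the S phase list was not shared by the tumors.

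Of 14 mitotic genes 7 fell and none rose, beside 4.25% of all genes called lower. With the estimated correlation none of the 14 was called. In that fit 10 of the 14 passed an unadjusted p of 0.05, as did 3363 of the 14855 genes tested. All 14 estimates were negative, and the median was -2.56 without the block and -0.95, -1.87 and -2.42 within tumors 1, 2 and 3. Top2a, the mitotic topoisomerase, was at 14.4, 106 and 14.9 CPM in the positive and 2.33, 21.2 and 6.41 CPM in the negative libraries (block estimate -2.16 ± 0.25, adjusted p = 0.0016). Birc5, which encodes survivin, fell by 1.84 ± 0.39 on the log2 scale (adjusted p = 0.0191). Cdk1, the mitotic kinase, was at 7.68, 32.8 and 3.77 CPM in the positive and 3.90, 8.30 and 0 CPM in the negative libraries (adjusted p = 0.0468). By edgeR with the block, 2 of the 14 passed, Mki67 and Top2a (3.87% over all genes). By DESeq2 with the block, 10 of the 14 passed, all lower (11.7% over all genes). Without CD34 positive library 2, and with the block, the calls over the 5 lists came to 7 of 88, beside 837 of 15132 genes tested. Without CD34 negative library 3, and with the block, they came to 40 of 87, beside 1859 of 15559 genes tested.

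Of 7 CDK inhibitor genes 3 rose and 1 fell with the block, beside 4.32% and 4.25% of all genes, and the median log2 fold change was 0.70 without it. Cdkn1a, the gene of p21, was at 369, 225 and 197 CPM in the positive and 828, 587 and 816 CPM in the negative libraries. Every negative library exceeded every positive one, at a log2 fold change of 1.51 ± 0.28 (adjusted p = 0.0769 without and 0.00143 with the block). Cdkn2a, whose count joins the transcripts of p16 and p19ARF, rose from 12.2 ± 6.84 to 62.9 ± 5.56 CPM (SD, n = 3), at 2.34 ± 0.39 (adjusted p = 0.0735 and 0.00233). Cdkn2b, the gene of p15, was at 22.2 ± 13.0 and 71.8 ± 13.0 CPM (SD, n = 3), at 1.73 ± 0.43 (adjusted p = 0.142 and 0.00883). Cdkn1c, the gene of p57, fell, with a block estimate of -1.01 ± 0.23 (adjusted p = 0.0250). The 3 that rose also passed by edgeR with the block and with the estimated correlation, and Cdkn1c passed neither. All 4 passed by DESeq2 with the block.

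Per kb and as a description, the genes Cdkn2a to Cdkn2d summed to 0.673, 0.606 and 0.351 per unit of Cdk4 plus Cdk6 in the positive and 1.45, 1.71 and 2.50 in the negative libraries. The Cdkn2a count in this sum joins p16 and p19ARF transcripts, so the sum is not an amount of INK4 transcripts alone. Cdkn1a, Cdkn1b and Cdkn1c summed to 5.06, 2.85 and 4.14 per unit of D-type cyclin in the positive and 8.12, 5.65 and 10.6 in the negative libraries. Neither ratio overlapped between the fractions. Both contain genes already known to differ, were chosen after the values were seen and were not tested.

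Of 15 genes that link mitogens, Wnt and related signals to D-type cyclins, 14 were tested, and 1 rose and 1 fell with the block, close to the 4.32% and 4.25% of all genes, at a median of 0.06 without it. Myc, with an estimate of -0.95 ± 0.20 without the block (adjusted p = 0.0906), fell by 0.94 ± 0.13 on the log2 scale with it (adjusted p = 0.0038), with groups that did not overlap. Jund, an AP-1 subunit, was at 572, 425 and 390 CPM in the positive and 1272, 783 and 421 CPM in the negative libraries (block estimate 0.71 ± 0.19, adjusted p = 0.0479). It passed neither by edgeR nor with the estimated correlation, but passed by DESeq2 with the block.

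**Figure D4:**
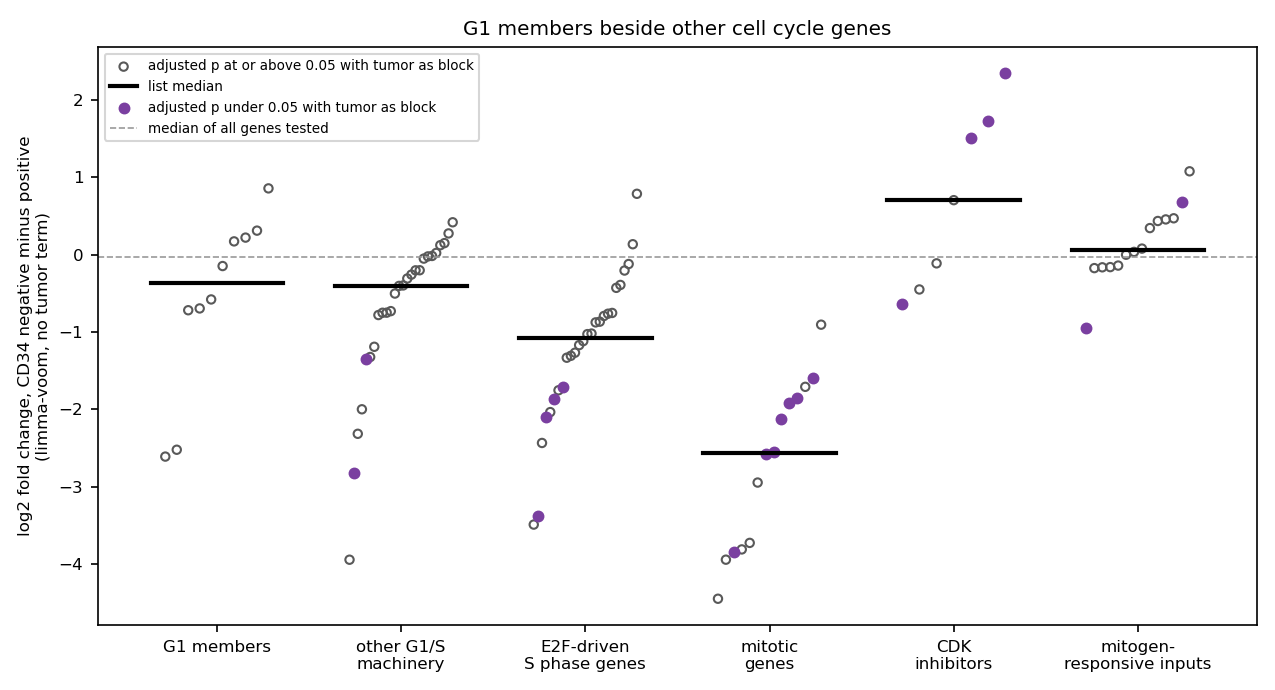
Log2 fold change, CD34 negative minus CD34 positive, by limma-voom without a tumor term (vertical axis) for the 10 G1 genes and 5 further lists, 1 point per gene. Filled points had an adjusted p under 0.05 with the tumor as a block, black bars are list medians (-0.36 for the G1 genes, -2.56 for mitotic genes, 0.70 for CDK inhibitors), and the dashed line is the median of all genes tested.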

How the data were processed

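Reads from poly(A) libraries (TruSeq RNA v2, Illumina) were aligned to GRCm38/mm10 by the authors, who counted reads for each NCBI gene using Rsubread. What they deposited is 1 table of raw read counts for the 6 libraries. Strand and multi-mapping settings were not given in the sources used here. The count table was filtered with filterByExpr (minimum count 10), normalized by TMM and tested by limma-voom (R 4.3.3, edgeR 4.0.16, limma 3.58.1), two-sided, with Benjamini-Hochberg adjustment over 14855 genes and a threshold of 0.05, without a tumor term, since the study's methods name voom and linear modeling and state no such term. CPM were scaled by TMM. The scripts were tested on simulated data. The tumor was the block of an alternative fit, since both fractions came from each tumor. The fit without a tumor term called 3 genes higher in the CD34 negative fraction, and the fit with the block 642. The paper's own list of genes higher in this fraction is far longer than 3, so the fit without a tumor term did not reproduce it. The libraries of a tumor deviated together, with correlations of 0.396, 0.399 and 0.221 for tumors 1, 2 and 3. DESeq2 1.42.0 and edgeR's quasi-likelihood test were further alternatives. Levels of different genes were compared per kb of the deposited exon length. Totals of 16238059 to 86609267 counts set the precision. The floor of 3 counts covers counting error only. The 95% intervals and p-values of limma-voom measure the spread between these libraries, with variances moderated over all genes. With the tumor as a block they measure the spread left after tumor differences are removed.

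Genes named were the 10 members, a fixed set (Rbl2, Cdk2, E2f3, E2f4, Cdkn1a, Cdkn2a, Cdkn2b, Mki67, Cd34, Pdgfra) and up to 4 genes per list with the largest log2 fold change among those passing with or without the block. Members and lists were chosen with earlier results of these data known. Coordinates are those of RefSeq on GRCm38.p6. Exon overlaps were computed from all exons of a GENCODE annotation of the same build, whose exon sums differ from the deposited exon lengths.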

Additional observations from a re-analysis of the deposited data

How the results depend on the processing

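Calls over all genes, 18 in the fit without a tumor term used here, came to 32 with library totals alone and 9 by edgeR. They came to 698 by DESeq2, 161 with sample quality weights and 10 with counts thinned to the smallest library. With the replicate block they came to 1273 by limma-voom, 575 by edgeR, 1733 by DESeq2, 703 with the block as a correlation (0.393) and 1053 after thinning. Leaving out single libraries or tumors gave 0 to 86 calls. With the block it gave 1134 without tumor 1, 851 without tumor 2, 2019 without tumor 3, 1859 without CD34 negative library 3 and 837 without CD34 positive library 2. Calls in the 5 lists, 0 in the fit without a tumor term used here, came to 5 by DESeq2 and 1 with quality weights. With the block they came to 19 by limma-voom, 8 by edgeR, 23 by DESeq2, 5 as a correlation and 13 after thinning. At an adjusted p under 0.1 they came to 3, or 30 with the block, a pairing of settings chosen after seeing the data. Leave-outs gave 0 to 1 list calls. With the block they gave 18, 7 and 42 without tumors 1, 2 and 3, 40 without CD34 negative library 3 and 7 without CD34 positive library 2. Calls among the 10 genes stayed at 0 except for 1 (Rbl1) by DESeq2 with the block and 1 (Rbl1) with the block without tumor 3 or CD34 negative library 3. Cdk4 turned positive (0.048) with quality weights. Under leave-outs without the block the log2 fold change ran from -0.13 to 0.52 for Ccnd1, -0.041 to 0.43 for Ccnd3 and -0.34 to 0.046 for Cdk4, and Cdk6 came to 0.025 and 0.038 with the block without tumor 3 and without CD34 negative library 3. The cause was not tested. Ccnd2, Rb1, Ccne1, Rbl1 and E2f1 kept their direction in 30 alternatives and Ccne2 in 29, since a minimum count of 30 removes it. Their sizes moved: leave-outs without the block gave 0.13 to 0.50 for Ccnd2, 0.38 to 1.20 for Rb1, -1.26 to -0.25 for Ccne1, -3.74 to -0.26 for Ccne2, -3.30 to -1.43 for Rbl1 and -0.91 to -0.34 for E2f1. Thinning moved Rbl1 to -2.27 and E2f1 to -0.49.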
